A study of Mus musculus with 14 samples.

Results

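In the deposited table of 23174 rows, 9 genes were high in embryonic stem cells (ESCs) and in extraembryonic endoderm (XEN) stem cells. These genes were low at cXENp1, passage 1 of chemically induced XEN differentiation. They are Spp1, Socs3, Pltp, Hk1, Capg, Fbxo15, Zfp36l2, Cox8a and Csrp2. The members were chosen by measured values. A gene entered where its lowest value over 4 ESC libraries and 2 XEN lines was at least 10 FPKM (fragments per length of transcript and size of library; the unit was read from the values and from the tools the submitters name) and its highest value over the 4 libraries of stage cXENp1 was at most 50% of that lowest value. Of 4601 rows that met the first condition, 11 met both. Klf4 and Slc29a1 were left out by their symbols, together with any gene of the Klf, Slc, Atp6 and Cts names. The ESC, XEN and cXENp1 values of the members are therefore a description. The values at stage cXENp3 took no part in the choice. The rule did not name genotype, but it took the lowest ESC and the highest cXENp1 value over all 4 lines, so differences between lines at those stages bear on which genes entered.

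The study followed mouse ESC lines through chemically induced XEN differentiation, with 1 RNA-seq library per line and stage and 14 libraries in all. It concerns Zfp281, a zinc finger transcription factor that its title calls a barrier to this change of state. WT3 is the wild-type line, KO3.34 and KO2.6 are Zfp281KO lines, and Rescue3.34 carries a Zfp281 rescue in the KO3.34 line, so these libraries share an origin. Wild type and rescue are represented by a single line apiece. The title of the second knockout names it 2.6 and its cell line field 2.26-/-. These lines and XEN5 have the background 129S1/SVImJ and XENB1 has 129S1; XENB1 and XEN5 are wild-type XEN lines. ESCs were grown on gelatin with leukemia inhibitory factor (LIF). At cXENp1 (passage 1) cells had been moved to XEN medium and given retinoic acid at 0.01 µM with activin A at 10 ng/mL for 48 hours. At cXENp3 (passage 3) they had since passed over a layer of inactivated fibroblast feeders and back to gelatin in XEN medium. The recipe given for XEN medium does not list LIF.

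ESCs keep the capacity to form the embryo proper, and XEN cells represent the primitive endoderm and its yolk sac derivatives. They differ in master regulators, but both renew themselves in culture. LIF acts through the LIF receptor and gp130 on STAT3, which induces SOCS3, a feedback inhibitor of that receptor.

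The libraries set some conditions for reading these genes. Zfp281 itself had 25.1 to 38.6 FPKM in the WT3 and Rescue3.34 libraries and 0 to 3.96 FPKM in the knockout libraries. Summed FPKM was lower at cXENp1, with 424406 to 520485, than in ESCs, with 678479 to 718138; it was 515475 to 640798 at cXENp3 and 591482 to 606565 in the XEN lines. The 10 pluripotency markers summed to 6781 to 9736 FPKM in ESCs, 345 to 1080 at cXENp1, 3833 and 7150 in the Zfp281-present libraries (WT3 and Rescue3.34) at cXENp3, and 207 and 952 in the knockout libraries there. The 8 XEN markers summed to 1.20 to 48.4 FPKM in ESCs and 37.0 to 385 at cXENp1. KO2.6 had the highest value of each of these markers in ESCs. At cXENp1 the same held for each but Foxa2, which was highest in Rescue3.34. At cXENp3 the XEN marker sums were 5.25 and 13.5 FPKM in the Zfp281-present libraries and 944 and 1156 in the knockout libraries. The XEN lines had 1031 and 1342. The 9 feeder fibroblast markers summed to 1255 FPKM in Rescue3.34 at cXENp3 and to 35.8 in WT3, with 277 and 354 in the knockout libraries and 552 and 634 in the XEN lines; none of the 9 was at 0 throughout. In bulk libraries fewer cells of a type and less RNA per cell cannot be told apart.

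Depth of the low at cXENp1 depended on scale for most of the set. After every library was rescaled to the same sum, 3 of the 9 genes still met the 50% threshold: Spp1, Socs3 and Pltp. The highest cXENp1 value of Spp1 was 16.3% of its lowest ESC or XEN value as deposited and 20.9% after rescaling, that of Socs3 was 22.7% and 25.8%, and that of Pltp was 32.7% and 44.5%. The other 6 genes lay between 45.7% and 49.7% as deposited and between 54.4% and 72.9% after rescaling. Quantile normalization kept 5 of the 9 at or below 50%, namely Spp1, Socs3, Pltp, Capg and Zfp36l2. Over all 4601 rows at 10 FPKM or more in ESC and XEN libraries, the median of the same percentage was 150.1% as deposited and 203% after rescaling.

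**Figure D1:**
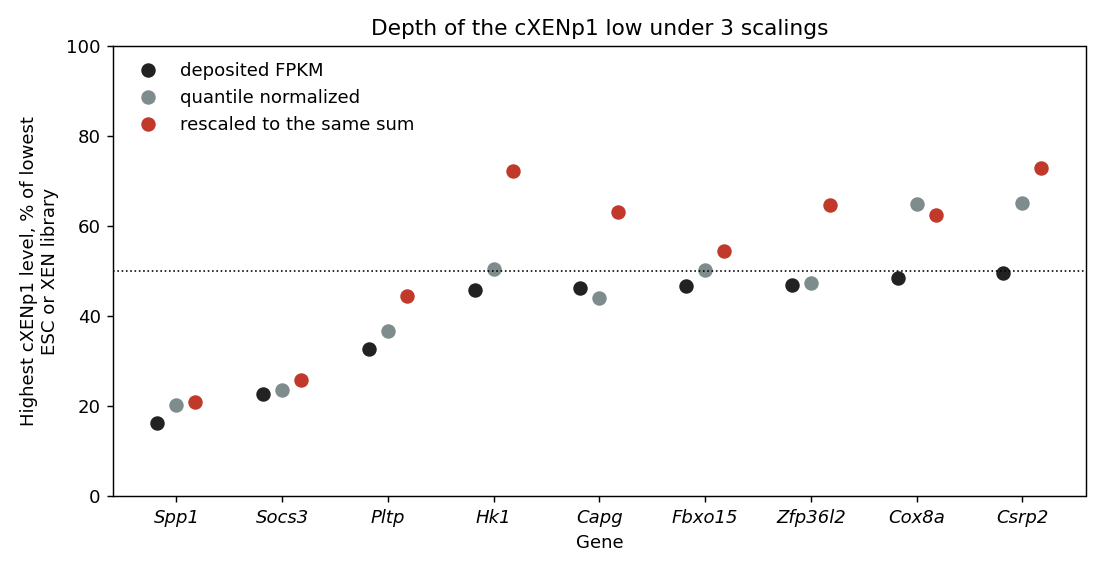
Highest cXENp1 level of each gene as a percent of its lowest ESC or XEN level (y axis), under the deposited FPKM (black), quantile normalization (grey) and rescaling to the same sum (red), with the 50% threshold dotted. Only Spp1, Socs3 and Pltp lie below the line under all 3 scalings.

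Spp1 and Pltp encode secreted proteins. Spp1 encodes osteopontin, a secreted phosphoprotein that binds integrins and CD44 (XLOC_015350, mm9 chromosome 5, 104864130 to 104870072). In ESCs Spp1 had 217 FPKM for WT3, 130.2 for Rescue3.34, 523 for KO3.34 and 490.3 for KO2.6. At cXENp1 it had 10.8, 18.6, 7.19 and 16.6 FPKM in the same order, 16.3% of the lowest ESC or XEN value at most, which was the smallest percentage of the set by the rule. Against the ESC library of the same line Socs3 was lower still in WT3 and Rescue3.34. At cXENp3 Spp1 had 171, 129, 117 and 93.2 FPKM, against 230.0 in XENB1 and 114 in XEN5. Every cXENp3 library thus lay above every cXENp1 library, and 3 of 4 had reached the XEN5 level, KO2.6 being the exception at 81.8% of it. Both knockout ESC libraries lay above both Zfp281-present ones, whereas at cXENp3 both lay below.

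Pltp encodes phospholipid transfer protein, which moves phospholipids between lipoproteins (XLOC_012438, mm9 chromosome 2, 164656230 to 164683208). ESC libraries were close together for Pltp, with 56.3 FPKM for WT3, 53.8 for Rescue3.34, 51.8 for KO3.34 and 45.1 for KO2.6. Its cXENp1 values were 11.5, 6.76, 7.41 and 11.8 FPKM. At cXENp3 WT3 had 59.3 and Rescue3.34 20.5 FPKM, while KO3.34 had 4.95 and KO2.6 13.6, beside 70.8 in XENB1 and 36.1 in XEN5. WT3 was back at 105% of its own ESC level and Rescue3.34 at 38.1%. Pltp was the only member that stayed at or below the 50% threshold at cXENp3, in both knockout lines, and the only one that had not moved up from cXENp1 in some line, with a cXENp3 level 0.667 times its cXENp1 level in KO3.34. Both knockout libraries and Rescue3.34 lay below both established XEN lines at cXENp3.

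Socs3 is the signalling gene of the set (XLOC_004010, mm9 chromosome 11, 117827401 to 117830680). ESC values were 143 FPKM for WT3, 132 for Rescue3.34, 91.8 for KO3.34 and 50.4 for KO2.6. At cXENp1 they were 3.97, 4.42, 5.14 and 5.32 FPKM, between 9.47-fold (KO2.6) and 36.1-fold (WT3) lower than the same line in ESCs. At cXENp3 Socs3 had 32.0 FPKM for WT3, 18.9 for Rescue3.34, 52.8 for KO3.34 and 39.1 for KO2.6, and the XEN lines had 27.9 and 23.4. Socs3 was the only member whose XEN values lay below every ESC value, so its return is to a lower level: the cXENp3 libraries held 14.3% (Rescue3.34) to 77.6% (KO2.6) of the ESC level of their own line but 80.6% to 226% of the lower XEN line.

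The promoter windows of these 3 genes are shown because their low at cXENp1 held under each scaling. They are the 250 bases before the annotated RefSeq start on GRCm38.p6, 5′ to 3′ on the strand of the gene, with every match to a searched motif in capitals. Socs3 is at chr11:117969367-117969616 (minus strand), Pltp at chr2:164857709-164857958 (minus strand) and Spp1 at chr5:104434861-104435110 (plus strand).
Socs3: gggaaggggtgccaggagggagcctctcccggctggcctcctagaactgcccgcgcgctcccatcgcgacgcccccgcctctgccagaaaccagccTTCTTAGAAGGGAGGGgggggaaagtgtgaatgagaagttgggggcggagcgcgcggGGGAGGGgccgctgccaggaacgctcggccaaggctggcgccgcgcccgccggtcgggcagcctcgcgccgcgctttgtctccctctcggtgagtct
Pltp: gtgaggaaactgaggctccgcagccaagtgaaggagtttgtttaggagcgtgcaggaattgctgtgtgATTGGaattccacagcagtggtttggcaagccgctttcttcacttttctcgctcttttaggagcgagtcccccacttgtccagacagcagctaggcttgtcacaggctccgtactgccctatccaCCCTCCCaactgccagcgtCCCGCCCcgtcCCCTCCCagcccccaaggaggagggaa
Spp1: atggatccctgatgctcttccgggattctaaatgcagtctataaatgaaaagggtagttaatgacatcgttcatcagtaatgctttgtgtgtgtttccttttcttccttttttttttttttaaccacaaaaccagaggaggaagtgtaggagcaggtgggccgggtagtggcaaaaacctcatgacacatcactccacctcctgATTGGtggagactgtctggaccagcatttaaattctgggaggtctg

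Motifs were searched on both strands, and RefSeq windows were found for 6 of the 9 genes, 8 windows in all. Genes with no entry were Csrp2, Zfp36l2 and Fbxo15. The STAT-type motif TTCNNNGAA, added after the values were seen, had 1 match, in Socs3, beginning 154 bases before the start, and stood in 7.02% of all 32851 windows. It is followed directly by GGGAGGG, a G-rich run of the kind that Zfp281 is known to bind, which begins 145 bases before the start and again at 97. GGGAGGG was found in 3 of the 8 windows (1 each of Socs3, Pltp and Hk1) and in 19.7% of all windows. CCAAT was found in 3 of the 8 (Spp1, Pltp and Cox8a) and in 33.8% of all windows, GGGCGGG in 1 (Pltp; 23.4%) and GGGTGTG in 1 (Hk1; 6.93%). Spp1 and Hk1 have a second RefSeq start each, and the other Spp1 window, not printed, held no match. The E-box CACGTG (6.02%) and the AP-1 motif TGACTCA (4.46%) had no match in the 8 windows. These are matches of letters in this window only, and no motif was common to more than 3 genes.

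Hk1 and Cox8a are the energy genes. Hk1 encodes hexokinase 1, which phosphorylates glucose at the head of glycolysis (XLOC_001985, mm9 chromosome 10, 61731603 to 61842656). In ESCs Hk1 had 73.9 FPKM for WT3, 86.0 for Rescue3.34, 57.7 for KO3.34 and 22.2 for KO2.6. The 4 cXENp1 libraries were nearly equal, at 10.0, 9.45, 9.28 and 10.0 FPKM. At cXENp3 the values were 28.8, 19.2, 21.2 and 34.3 FPKM, beside 22.6 in XENB1 and 22.0 in XEN5. ESCs of KO2.6 already had a Hk1 level close to that of the XEN lines. The other lines came to 87.5% (Rescue3.34), 96.8% (KO3.34) and 131% (WT3) of the XEN5 level at cXENp3, and held 22.3% to 38.9% of their own ESC level.

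Cox8a encodes a subunit of cytochrome c oxidase, complex IV of the respiratory chain (XLOC_010280, mm9 chromosome 19, 7289648 to 7292106). On the FPKM scale it was the most abundant member, with 1123 for both WT3 and Rescue3.34, 1016 for KO3.34 and 919 for KO2.6 in ESCs. At cXENp1 it had 319.6, 344, 347 and 439.7 FPKM, and at cXENp3 756, 533, 673 and 656. XENB1 had 1238 FPKM and XEN5 908. All 4 cXENp3 libraries lay between the cXENp1 and the endpoint libraries, at 58.7% to 83.3% of the XEN5 level; Cox8a was the only member that no line had brought back in full.

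Zfp36l2 and Fbxo15 act in turnover of RNA and protein. Zfp36l2 encodes a zinc finger protein that binds AU-rich elements and promotes decay of mRNA (XLOC_009241, mm9 chromosome 17, 84583269 to 84587287). Its ESC values were tight, at 30.5 FPKM for WT3, 29.8 for Rescue3.34, 33.4 for KO3.34 and 32.0 for KO2.6. At cXENp1 it had 5.32, 6.49, 8.78 and 14 FPKM, and at cXENp3 27.3, 18.2, 37.1 and 29.6. XENB1 and XEN5 had 42.4 and 53.9 FPKM, above every ESC library, which held for no other member. KO3.34 alone exceeded the lowest ESC library at cXENp3, and KO2.6 had 99.3% of it.

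Fbxo15 encodes an F-box protein, the substrate-binding part of a ubiquitin ligase, and is a known ESC marker controlled by Oct4 and Sox2 (XLOC_009553, mm9 chromosome 18, 85104417 to 85150784). Its ESC values were 83.1 FPKM for WT3, 76.1 for Rescue3.34, 69.6 for KO3.34 and 38.3 for KO2.6, and the XEN lines had 27.9 (XENB1) and 52.6 (XEN5). At cXENp1 it had 7.99, 9.73, 6.99 and 13.0 FPKM. At cXENp3 it had 59.9, 74.7, 43.0 and 17.3 FPKM. Rescue3.34 was back at 98.2% of its own ESC level and WT3 at 72.0%. KO2.6 stayed at 61.9% of the XENB1 level, 1.33 times its own cXENp1 value.

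Capg and Csrp2 belong to the actin cytoskeleton. Capg encodes a gelsolin-family protein that caps actin filaments (XLOC_016600, mm9 chromosome 6, 72494385 to 72512977). ESC values of Capg were 16.5 for WT3, 17.7 for Rescue3.34, 18.5 for KO3.34 and 35.6 for KO2.6. It had 2.5, 4.76, 7.61 and 6.42 FPKM at cXENp1, and 9.44, 14, 19.6 and 30.0 FPKM at cXENp3. XENB1 had 44.5 FPKM and XEN5 21.7. Both knockout lines had passed the lowest endpoint value at cXENp3 and neither Zfp281-present line had.

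Csrp2 encodes a LIM-domain protein found on actin filaments (XLOC_001697, mm9 chromosome 10, 110357232 to 110376570). It had 200.3 FPKM for WT3, 186 for Rescue3.34, 241 for KO3.34 and 305 for KO2.6 in ESCs, and 45.0, 92.2, 58.4 and 84.7 FPKM at cXENp1. Values at cXENp3 were 256, 205, 183 and 102 FPKM, beside 339.7 in XENB1 and 192 in XEN5. WT3 and Rescue3.34 were above their own ESC levels, at 128% and 110%, and KO2.6 was at 33.4% of its own.

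**Figure D2:**
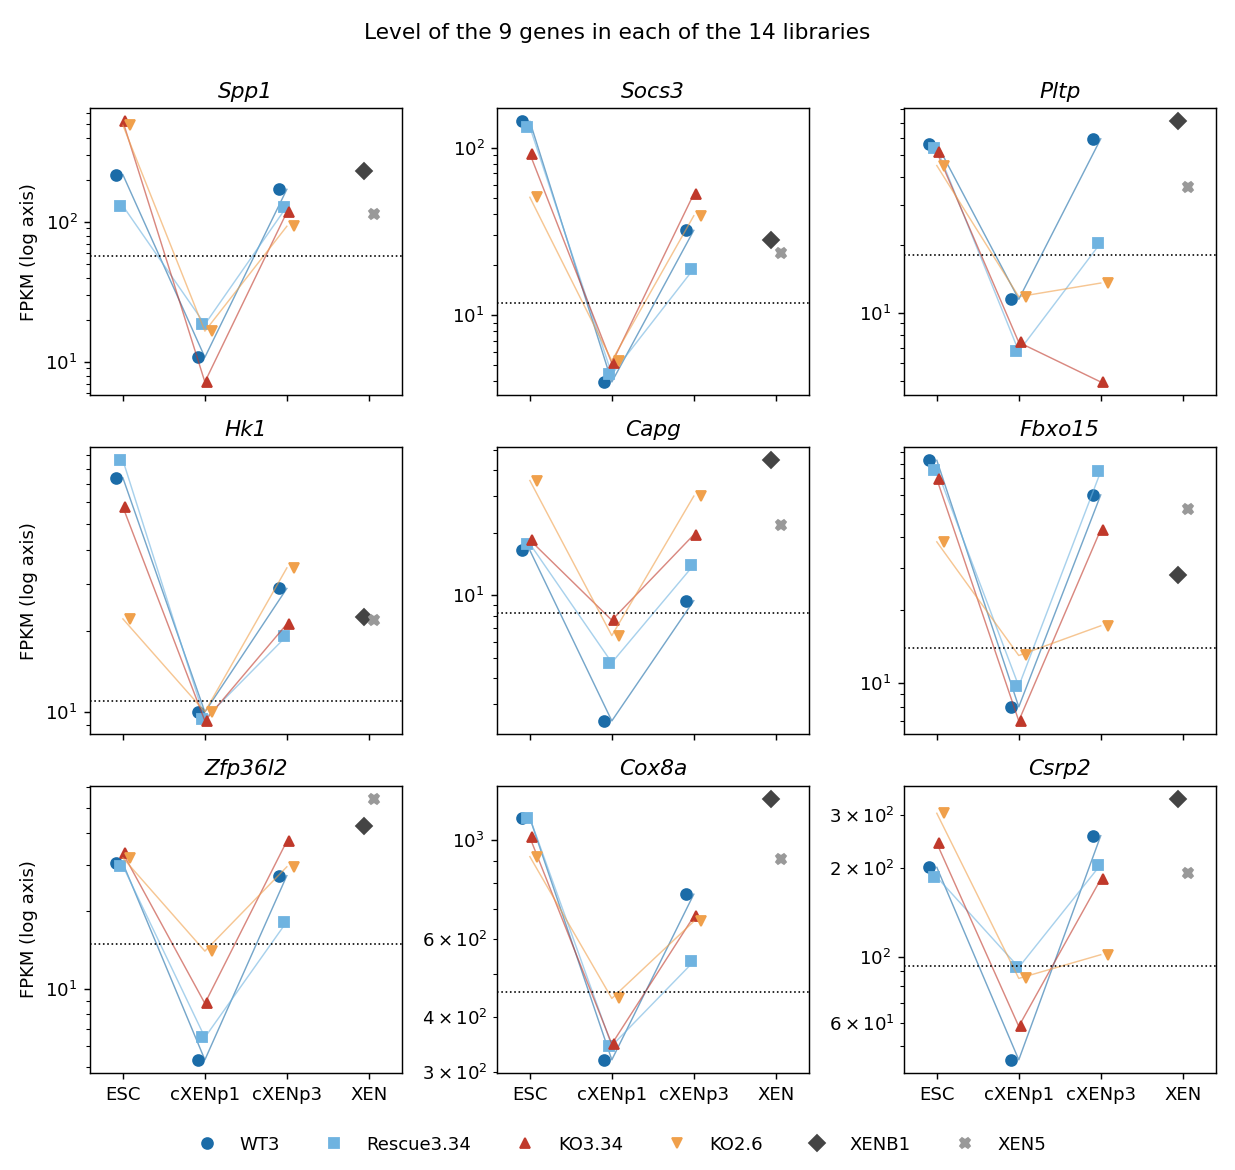
FPKM of each gene on a log axis (y) at ESC, cXENp1, cXENp3 and in the XEN lines (x), with 1 point per library, coloured and shaped by line, and a dotted line at the 50% threshold of the rule. Each cXENp1 point lies below its threshold by the choice of genes; at cXENp3 all but the knockout points of Pltp lie above it.

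The return at cXENp3 was counted per library, against the lowest ESC or XEN value of each gene. For 6 of the 9 genes that value came from a XEN line. The count therefore does not tell a return towards the ESC level from one towards the XEN level. In WT3, 6 of the 9 genes had reached that value and 3 lay between it and the 50% threshold. In Rescue3.34 these numbers were 3 and 6, and no gene stayed at or below the threshold in either line. In KO3.34, 5 genes had reached it, 3 lay between and 1 stayed low, and in KO2.6 the numbers were 3, 5 and 1, the low gene being Pltp in both. Of the other 4592 rows at 10 FPKM or more in ESC and XEN libraries, which were not chosen for a low at cXENp1, 90.2% had reached their own lowest value for WT3, 80.4% for Rescue3.34, 81.3% for KO3.34 and 62.9% for KO2.6. The order of the lines depended on scale for the members: after rescaling to the same sum WT3 and KO3.34 each had 7 genes back, Rescue3.34 had 5 and KO2.6 had 4.

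No gene had reached its lowest ESC or XEN value in all 4 lines, and no gene stayed low in all 4. Spp1, Socs3 and Fbxo15 had done so in 3 lines, Hk1, Capg and Csrp2 in 2, Pltp (WT3) and Zfp36l2 (KO3.34) in 1. Compared with its own cXENp1 library, the median gene of the set was 5.15 times higher at cXENp3 for WT3, 2.94 for Rescue3.34, 3.13 for KO3.34 and 2.12 for KO2.6. The medians over the other 4592 rows were 1.31, 1.04, 1.08 and 0.921. The members had been chosen for low cXENp1 values, so a higher value at the next stage is favoured by the choice and was not tested. Against the ESC library of the same line the return was smaller, with 2 genes back for WT3, 1 for Rescue3.34, 2 for KO3.34 and 1 for KO2.6.

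**Figure D3:**
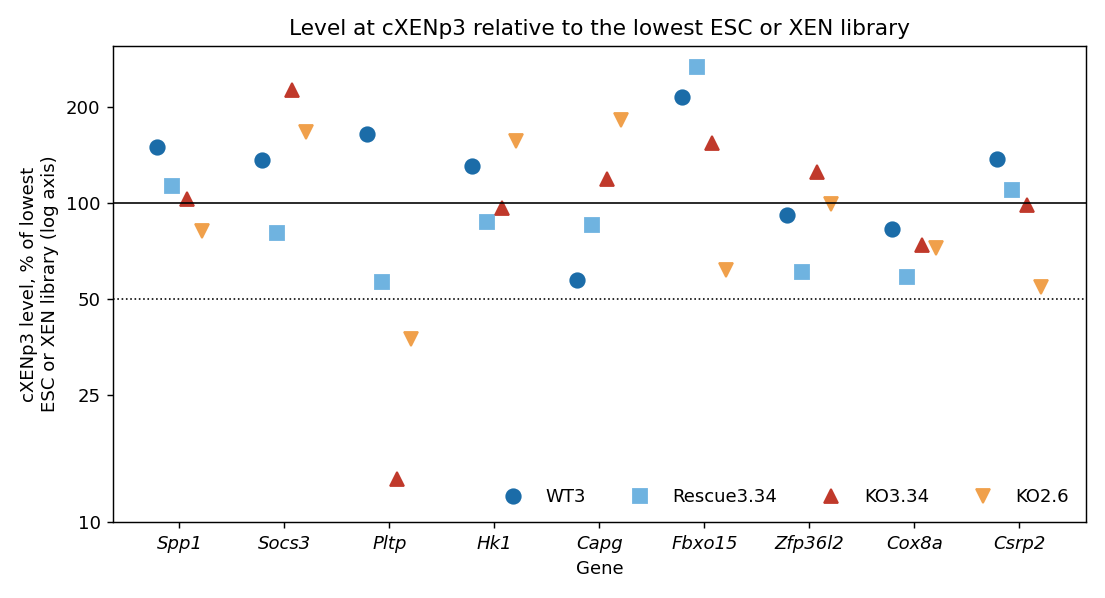
Level of each gene at cXENp3 as a percent of its lowest ESC or XEN library (log y axis), with 1 point per line, a solid line at 100% and a dotted line at 50%. Pltp ranges most widely, from 13.7% in KO3.34 to 164% in WT3, and all 4 points of Cox8a lie between 58.7% and 83.3%.

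Genotype was compared at cXENp3, the stage that the choice of genes did not use, with 2 knockout libraries against 2 Zfp281-present ones. The differences use cXENp3 values only. Their standard errors and p-values also draw on the spread within the ESC and cXENp1 groups, whose values the rule used, so they are not independent of the choice. Pltp and Fbxo15 were lower and Socs3 and Capg higher in the knockout lines, so 4 of the 9 members were called at an adjusted p under 0.05 (limma, over 13191 genes). All genes tested had a share of 41.9% called, 22.9% higher and 19.0% lower, so the members' share of 44.4% is near the background. The median log2 difference was 0.07 over the members and 0.01 over all genes.

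Pltp had the largest difference, with 39.9 ± 27.4 FPKM (mean ± SD, n = 2) in Zfp281-present and 9.26 ± 6.11 in knockout libraries, a log2 difference of -1.95 (SE 0.52, limma adjusted p 0.0138). Fbxo15 had 67.3 ± 10.5 FPKM in Zfp281-present and 30.1 ± 18.2 in knockout libraries, with a log2 difference of -1.26 (SE 0.43, limma adjusted p 0.0383). Both knockout values lay below both Zfp281-present values in each gene. Socs3 had 25.5 ± 9.29 FPKM in Zfp281-present and 46.0 ± 9.70 in knockout libraries, a log2 difference of 0.86 (SE 0.31, limma adjusted p 0.0498). Capg had 11.7 ± 3.23 against 24.8 ± 7.36 FPKM, a log2 difference of 1.01 (SE 0.36, limma adjusted p 0.0473). For Socs3 and Capg the knockout library was the higher in 4 of 4 pairs. In ESCs the log2 differences were -0.18 for Pltp, -0.61 for Fbxo15, -1.01 for Socs3 and 0.56 for Capg. At cXENp1 they were 0.08, 0.11, 0.26 and 0.83 in the same order, so only Capg had the same sign at each stage. The rule used the ESC and cXENp1 values, so these are a description.

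These calls rest on few libraries. None of the 4 was called without WT3, Pltp alone was called without Rescue3.34, Fbxo15 and Capg without KO3.34, and Socs3 and Pltp without KO2.6, and every difference kept its sign. The log2 difference of Pltp ran from -2.69 (without Rescue3.34) to -1.21 (without WT3), that of Fbxo15 from -1.89 (without KO3.34) to -0.62 (without KO2.6), that of Socs3 from 0.49 (without Rescue3.34) to 1.22 (without WT3) and that of Capg from 0.72 (without KO2.6) to 1.31 (without KO3.34). With a line left out 1 arm holds a single library, which is assumed to vary like the other groups. At cXENp3 the knockout libraries also had lower pluripotency marker sums, with the values given above. Their XEN marker sums were higher, at 944 and 1156 FPKM against 5.25 and 13.5 in the Zfp281-present libraries. Genotype and these marker sums differed together, so this comparison cannot tell them apart. Rescue3.34 also had a higher fibroblast marker sum than the other 3 libraries. The part of these marker differences in the 4 calls was not tested.

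The other 5 genes did not pass the test at cXENp3. Csrp2 differed by -0.74 (SE 0.37, limma adjusted p 0.130), Spp1 by -0.50 (SE 0.39, adjusted p 0.324), Zfp36l2 by 0.55 (SE 0.26, adjusted p 0.118), Hk1 by 0.19 (SE 0.39, adjusted p 0.724) and Cox8a by 0.07 (SE 0.22, adjusted p 0.833). For Zfp36l2 the knockout library was the higher in 4 of 4 pairs, and with libraries rescaled to the same sum its difference was called, at 0.66 (SE 0.23, limma adjusted p 0.0403).

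**Figure D4:**
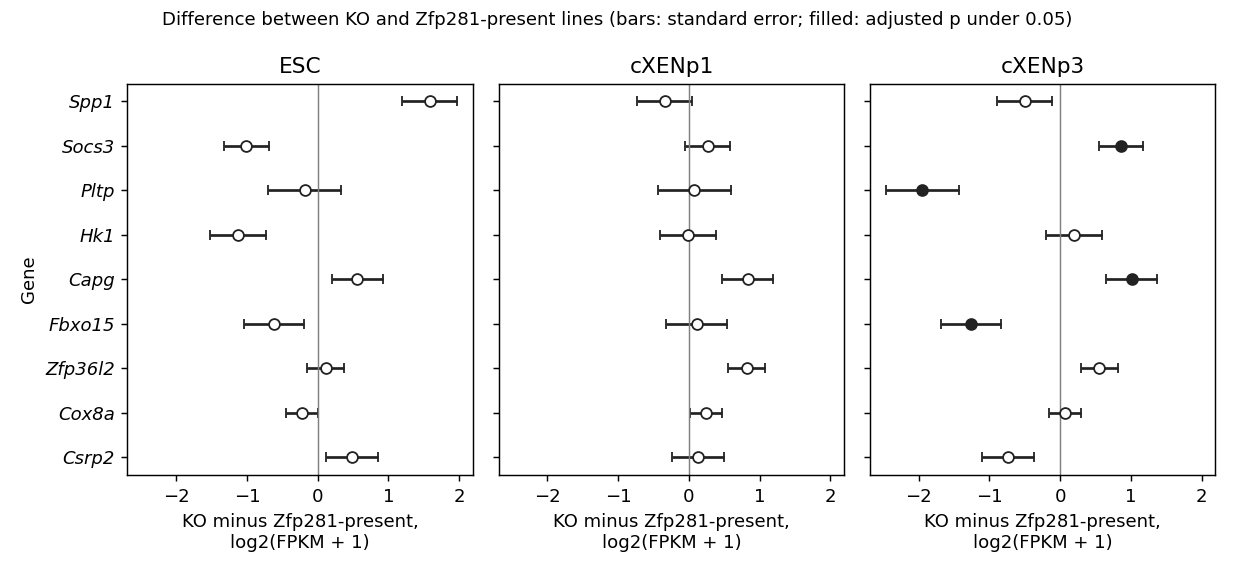
Difference between the knockout and the Zfp281-present lines in log2(FPKM + 1) (x axis) for each gene (y axis) at ESC, cXENp1 and cXENp3, with bars for the standard error and filled points for an adjusted p under 0.05; the ESC and cXENp1 values were used to choose the genes. Filled points appear only at cXENp3, for Socs3, Pltp, Capg and Fbxo15. Nothing is read from their absence at ESC and cXENp1.

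The ESC and cXENp1 values of all 4 lines were used by the rule, so the genotype differences at those stages, and in the change from cXENp1, are given as a description. In ESCs 0 of the 9 members were called by limma (3 had an unadjusted p under 0.05), where 1.97% of all genes were, and nothing is read from that count. Spp1 had 507 ± 23.1 FPKM (mean ± SD, n = 2) in knockout and 174 ± 61.6 in Zfp281-present ESCs, a log2 difference of 1.58. Hk1 differed by -1.13 and Socs3 by -1.01, with both knockout libraries below both Zfp281-present ones. The library description of KO2.6 ESCs has the prefix XH and those of the other ESC libraries JH. All cXENp1, cXENp3 and XEN libraries have XH. For WT3, Rescue3.34 and KO3.34, comparisons of later stages with their own ESC library therefore cross the prefix, and its part was not tested.

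At cXENp1, 0 of the 9 were called by limma (2 with an unadjusted p under 0.05), where 0.485% of all genes were. Log2 differences there ran from -0.34 (Spp1) to 0.83 (Capg). For the difference between genotypes in the change from cXENp1 to cXENp3, 0 members were called by limma (2 with an unadjusted p under 0.05), where 11.4% of all genes were. As for ESCs, nothing is read from the counts at cXENp1 or for this change. The log2 difference of changes was -2.03 for Pltp and -1.37 for Fbxo15. From cXENp1 to cXENp3 Pltp changed 5.15-fold in WT3, 3.03-fold in Rescue3.34, 0.667-fold in KO3.34 and 1.15-fold in KO2.6. For Fbxo15 these were 7.49, 7.68, 6.15 and 1.33 in the same order, so mainly KO2.6 stood apart. After rescaling to the same sum, KO3.34 (5.61) lay between WT3 (4.96) and Rescue3.34 (7.07) for Fbxo15.

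Gene lists for the pathways around the members show whether neighbours in function shared the pattern. For LIF signalling, Stat3 had 23.7 to 34.0 FPKM in ESCs, 10.4 to 16.8 at cXENp1 and 34.2 and 39.8 in the XEN lines, and its highest cXENp1 value was 70.8% of its lowest ESC or XEN value. In the list of 24 stem cell factors, 6 were at 10 FPKM or more in all ESC and XEN libraries, and 4 of these (Socs3, Stat3, Sall4 and Mybl2) had every cXENp1 value below that lowest value, Socs3 alone at or below 50% of it. The same held for 541 of all 4601 rows (11.8%). After rescaling 2 of the 6 remained below, Socs3 among them. Socs3 is in both counts by the choice of members. At cXENp3, 14 of the 24 were lower and 2 higher in knockout lines, with a median log2 difference of -1.57, beside the shares of 19.0% and 22.9% over all genes. The higher ones were Socs3 and Lifr, the LIF receptor. Lifr had 10.5 FPKM for WT3, 8.92 for Rescue3.34, 37.7 for KO3.34 and 88.5 for KO2.6 (log2 difference 2.46, SE 0.66, limma adjusted p 0.0147), and 23.5 and 39.99 FPKM in XENB1 and XEN5. Il6st, which encodes gp130, differed by 0.50 (SE 0.24, limma adjusted p 0.115) and Stat3 by 0.52 (SE 0.24, limma adjusted p 0.103). Unlike Stat3, neither Lifr nor Il6st had every cXENp1 value below its lowest ESC or XEN value. Lifr at cXENp1 had 2.90 to 4.15 FPKM in WT3, Rescue3.34 and KO3.34, below their ESC values of 10.6 to 13.9. In KO2.6 it had 22.6 FPKM, above 6.16 in its ESCs. Il6st had 11.1 to 14.7 FPKM at cXENp1 and 8.73 in KO2.6 ESCs, with 12.8 to 22.1 in the other ESC libraries.

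Around Cox8a, 18 of 21 listed respiratory chain and related genes were at 10 FPKM or more in all ESC and XEN libraries. Of these, 9 (50%) had every cXENp1 value below their lowest ESC or XEN value, beside 11.8% of all 4601 rows. Cox6a1 and Cox7a2, further complex IV subunits, were lowest, at 62.6% and 66.2%, and none reached the 50% threshold. After rescaling 2 of the 18 and 2.5% of all 4601 rows remained below. At cXENp3, 7 of 20 genes tested were lower and 1, Cox6a1, higher in knockout lines (log2 difference 0.68, SE 0.24, limma adjusted p 0.0429), and the list's median difference was -0.39. Over all genes 19.0% were called lower and 22.9% higher.

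Around Hk1, 4 of 15 glycolysis genes at that level (26.7%) had every cXENp1 value below their lowest ESC or XEN value, beside 11.8% of all 4601 rows. The 4 were Hk1, Pkm (82.0%), Ldha (83.0%) and Pgk1 (99.0%). After rescaling 1 of the 15 remained below, Hk1 itself. Hk1 is in both counts by the choice of members. At cXENp3, 10 of 20 glycolysis genes tested were lower and 0 higher in knockout lines, with a median of -0.98, where 19.0% of all genes were called lower and 22.9% higher. Pkm, the pyruvate kinase gene, differed by -1.61 (SE 0.31) and Pdk1, an inhibitor of pyruvate dehydrogenase, by -2.05 (SE 0.36). Hk1, with a difference of 0.19, was among the 10 that did not pass. Differences at cXENp3 were not particular to glycolysis. In knockout lines 15 of 18 ribosome biogenesis genes were called lower and 0 higher. For nucleotide and one-carbon synthesis 15 of 19 were lower and 1 higher, and for autophagy and lysosome genes 20 of 34 were higher and 1 lower. In the other 12 lists, on other pathways, among them cholesterol synthesis, autophagy, iron handling, epithelial junctions and chaperones, no gene at 10 FPKM or more in all ESC and XEN libraries was at or below the 50% threshold, and 0% to 33.3% of such genes per list had every cXENp1 value below their lowest.

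The 50% edge of the rule falls within a run of similar values. Just inside were Csrp2 at 49.7%, Cox8a at 48.4% and Zfp36l2 at 46.9%, and just outside were Timp1 at 50.6%, Atp1b1 at 51.5% and Tmc6 at 52.4%. On level, Capg (16.5 FPKM), Hk1 (22.0) and Socs3 (23.4) were nearest inside, and Tfeb (9.39), Hspb2 (5.93) and Itpka (3.96) nearest outside. KO2.6 held the highest cXENp1 value for 6 of the 9 members, and XEN5 the lowest ESC or XEN value for 5. Klf4, left out by symbol, had 103 to 188 FPKM in ESCs, 2.56 to 8.06 at cXENp1, 56.2 to 145.8 at cXENp3 and 64.5 and 66.7 in the XEN lines, a deeper low than any member. Slc29a1, likewise left out, had 12.8 to 51.5 FPKM at cXENp1 and 61.0 to 182 at cXENp3.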

How the data were processed

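The authors' deposited table gives FPKM per gene and library, from sequencing of polyA RNA (read pairs, 150 bp), per the labels' protocols. The submitters' processing notes name STAR 2.5.3, Cufflinks 2.1.1 and the build mm9, with no role. The deposited FPKM carry no read counts, so depth is unknown and no counting interval was computed. Starts were shifted by 1 to count from 1.

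The scale of analysis was log2(FPKM + 1); it understates changes of low genes. Genes with at least 1 FPKM in at least 2 of 12 libraries were kept (13191, with all 9 members). limma 3.58.1 (R 4.3.3; lmFit, eBayes with trend) was fitted across all genes to 6 groups of 2 libraries, knockout or Zfp281-present by stage, with Benjamini-Hochberg adjustment in each of 4 comparisons. The labels name no separate cultures within a line, so p-values measure only the spread between these libraries. Lines pair the stages; the correlation within a line was 0.0371. The code was tested on simulated data.

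Members and gene lists were chosen with earlier results of these data known. The naming rule covered members called at cXENp3 with the same sign in all 4 pairs, members with the deepest low or the highest endpoint level, the 3 genes nearest each threshold on either side, members low or back in all lines, and genes of the lists. As the set is small, every member is given; the examples within lists, Klf4 and Slc29a1 were chosen after their values were seen. Alternatives covered pseudocount, filter, scaling, eBayes trend, the block by line, leaving out each line and the thresholds of the rule.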

Additional observations from a re-analysis of the deposited data

How the results depend on the processing

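The set depends on its percentage threshold and on scale, and less on its level threshold. A lowest endpoint of 5 FPKM gave 11 genes and one of 20 FPKM gave 8, against 9 at 10 FPKM. A threshold of 40% gave 3 genes (Socs3, Pltp and Spp1) and 60% gave 29, rescaling libraries to the same sum gave 3, and leaving out 1 line gave 9 to 69 genes, the latter without KO2.6. At cXENp3 the number of members called between genotypes was 4. It was 1 (Pltp) with any value above 0 kept, where 18962 genes were tested, 2 (Fbxo15 and Pltp) after quantile normalization, and 0 to 2 when a line was left out; over all genes leaving out a line gave 1057 (without WT3) to 6150 calls instead of 5528, with 2875 without Rescue3.34. With line as a replicate block 4 members were called, and the block changed no other count of members called. In ESCs leaving out a line gave 0 to 3 called members (3 without KO3.34, with KO2.6 the only knockout library and its spread taken from the other groups), and for the difference in change from cXENp1 to cXENp3 it gave 0 to 1. The difference of Hk1 at cXENp3 changed sign without Rescue3.34 (-0.088) and without KO2.6 (-0.14), and that of Cox8a without Rescue3.34 (-0.19); none of these was called. Rescaling put 7, 5, 7 and 4 members back at their lowest endpoint value at cXENp3 in WT3, Rescue3.34, KO3.34 and KO2.6, instead of 6, 3, 5 and 3. With the ESC library of the same line as the endpoint, 2, 1, 2 and 1 members were back in WT3, Rescue3.34, KO3.34 and KO2.6, and 2, 4, 3 and 4 stayed at or below 50% of it. The cause of these changes was not tested beyond what each setting changes by its construction.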
